A study of Homo sapiens with 12 samples.

Results

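The response described here is that of ANT1 knockout cells to bleomycin, measured as the transcript levels in 3 bleomycin libraries against those in 3 control libraries. The members are these 6 libraries, taken by their labels from the 12 in the series. The other 6 libraries are wild type cells of the same line under the same treatments and enter only as a comparison. All cells were Beas-2b, an immortalised human bronchial epithelial line made with an adenovirus and SV40 hybrid virus, whose T antigen is known to bind p53 and the retinoblastoma protein. In the knockout cells SLC25A4, the gene for the adenine nucleotide translocase ANT1, had been targeted with CRISPR. The labels speak of clones but not of how many the 6 libraries came from, so knockout and clone cannot be told apart. Knockout control cells were kept in medium, and knockout bleomycin cells received bleomycin at 10 mg/ml over 2 days, as the labels state the dose, to induce senescence. Whether the labelled unit is right could not be checked from the files. Wild type control and wild type bleomycin cells were treated in the same way. RNA was isolated with Trizol and enriched for poly(A) RNA before sequencing.

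Bleomycin is a metal-binding glycopeptide that cuts DNA, and it is the agent most used to provoke lung fibrosis in animals. Double-strand breaks activate the kinases ATM and DNA-PK, which stabilise p53. The p53 protein then switches on CDKN1A, whose product p21 halts the cell cycle, and genes of DNA repair and cell death. In cells that stay arrested, genes of mitosis are silenced through the DREAM complex, and many arrested cells secrete cytokines, growth factors and proteases, a state known as senescence. ANT1 carries ADP into the mitochondrial matrix and ATP out of it.

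Levels are given in CPM, counts per megacount of the scaled library, in the order of replicates 1, 2 and 3. A gene is said to rise or fall where edgeR's quasi-likelihood test gave a Benjamini-Hochberg adjusted p under 0.05 over all genes tested. Differences between bleomycin and control are fitted log2 values with their standard error (SE), and 1 unit is a 2-fold change. The replicates are called biological replicates in the series' design text. Nothing says that they came from separate cultures, so p-values measure the spread between these libraries, part of which may be technical.

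The 6 libraries held between 15.75 and 18.83 megacounts. A count of 0 in a library allows a level of up to 3 counts, 0.159 to 0.190 CPM, and that floor covers counting error only. Knockout control replicate 2 stood apart. Its mitochondrial share of counts was 0.364%, against 4.43% and 3.86% in the other knockout controls and 4.66%, 5.03% and 4.39% in the bleomycin libraries. Among 10314 well expressed genes, 514 were over 2-fold above the mean of the other 2 controls in this library and 401 were over 2-fold below it. In the other knockout libraries, each set against the rest of its group, those counts were at most 25 and 99. All results were therefore computed with and without control replicate 2. Values without it stand beside many of the calls and counts that it moved, but not all. A count or size printed alone may have moved too. The mean mitochondrial share was 4.70% ± 0.323 after bleomycin and 2.88% ± 2.20 in control (SD, n = 3). The exact permutation p of that difference was 0.2, two-sided, where 3 against 3 allows none below 0.1, and without control replicate 2 the control mean was 4.14% ± 0.405 (exact p = 0.3).

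SLC25A4 (ENSG00000151729, chromosome 4, 185143241 to 185150382) was still transcribed at a low level, with 5.08, 6.97 and 4.81 CPM in control and 4.7, 4.09 and 5 CPM after bleomycin. The libraries of the knockout groups overlapped, and the difference did not pass (log2 difference -0.29, SE 0.23, edgeR adjusted p = 0.328). The paralog SLC25A5, which encodes ANT2, rose (log2 difference 0.32, SE 0.10, edgeR adjusted p = 0.0226), and did not pass without control replicate 3 (0.31) or bleomycin replicate 2 (0.27). SLC25A6, which encodes ANT3, was at 0.10 (SE 0.10) and did not pass. Whether reads of these related paralogs were shared between them was not tested. The epithelial label was met by keratins KRT7, KRT8 and KRT18 at means of 579.9, 706 and 287 CPM in control. EPCAM (1.51 CPM) and CDH1, E-cadherin (2.45 CPM), were low, and KRT5 did not pass the filter on low counts. The fibroblast markers COL1A1 and THY1 were at means of 1579 and 264 CPM. Control replicate 2 raised the COL1A1 mean, as it lay several fold above the other controls, whose levels are given below. Positions are those of the authors' table. For all 16702 tested genes they equal those of GENCODE release 29 on GRCh38.

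Bleomycin moved a large share of the transcriptome of the knockout cells. Of 16702 genes tested, 7219 passed (43.2%), 3766 of them higher (22.5%) and 3453 lower (20.7%). The change was at least 2-fold for 2863 (17.1%), of which 858 were lower (5.14%). The 3 bleomycin libraries all lay above or all lay below the 3 controls for 8570 genes (51.3%), so that lack of overlap alone was common. Lack of overlap was also a condition for naming list members by size of change, so for those genes it is no separate finding. Without control replicate 2, 8319 of 17204 genes passed (48.4%), and 6585 of the 7219 calls were kept in the same direction, 634 were lost and 0 turned. A further 1608 genes passed only without that library, 795 higher and 813 lower. Each count of a gene list below can be read against these shares of all genes. Genes with few counts in control could pass the filter on low counts through the bleomycin libraries. Such genes could hardly be counted as falls, in the lists as over all genes. The median log2 difference of all genes tested was 0.00 with all libraries.

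**Figure D1:**
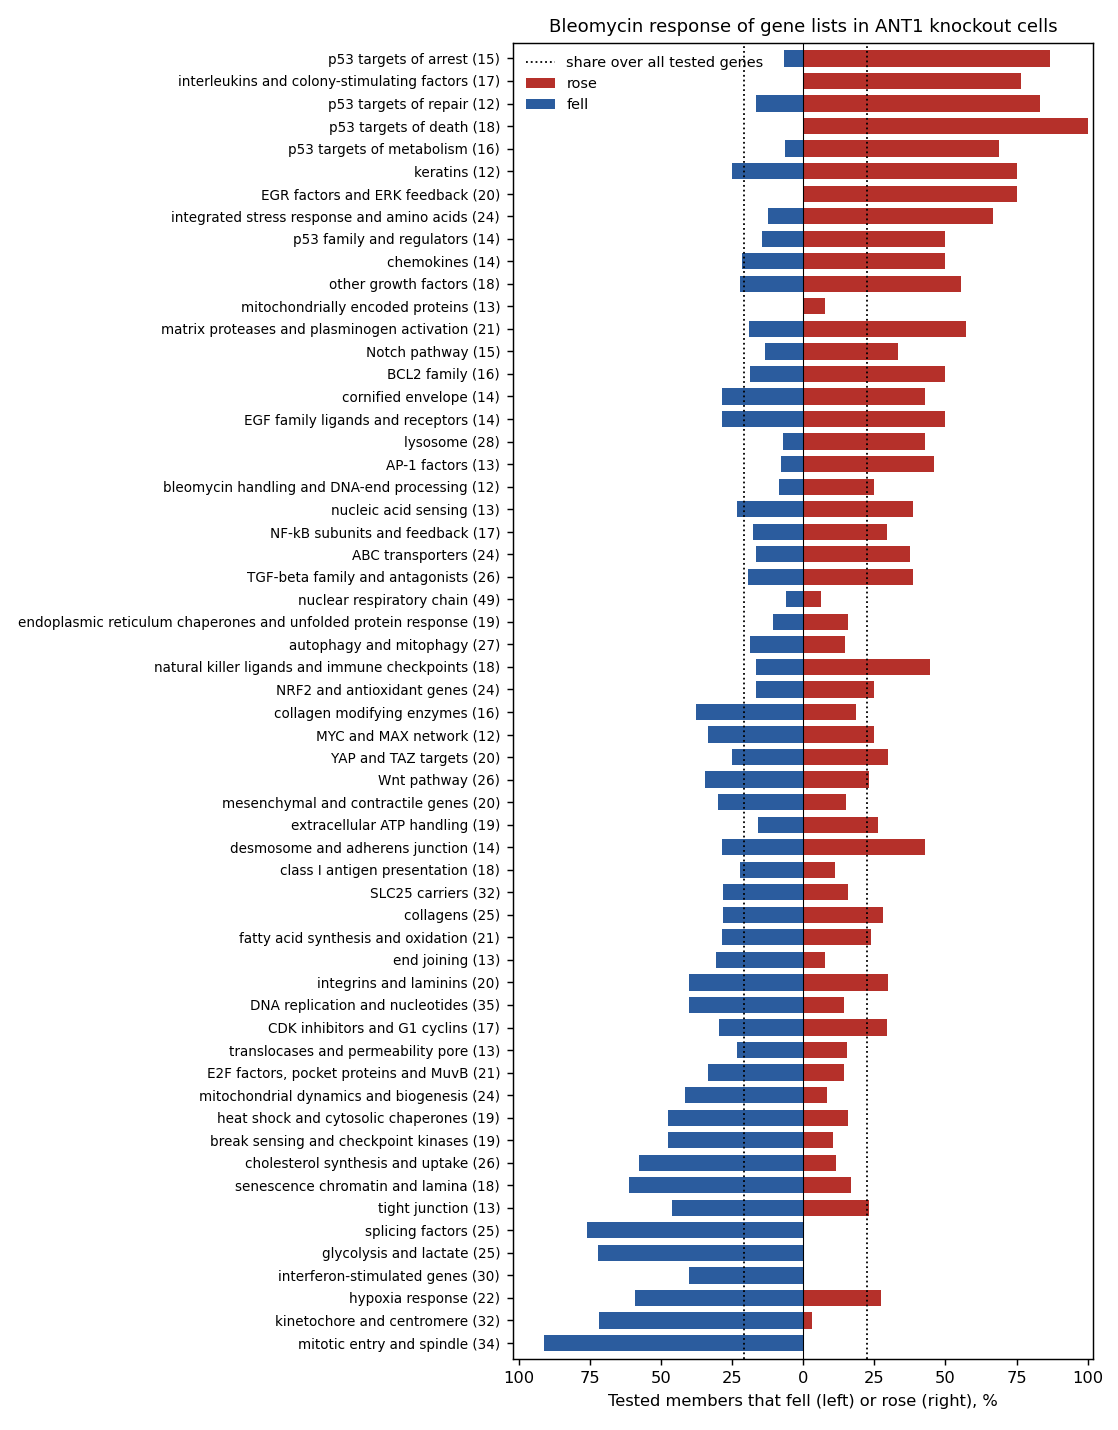
Share of tested members that rose (red, right) or fell (blue, left) after bleomycin in knockout cells, in percent, for the 58 gene lists with at least 12 tested members (number in brackets), ordered by median log2 difference. The dotted lines mark the shares over all tested genes, 22.5% higher and 20.7% lower, and p53 target and interleukin lists stand at the top with mitosis and kinetochore genes at the bottom.

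Genes that p53 switches on rose in nearly every branch of the pathway. Among targets that act in cell cycle arrest, 13 of 15 tested members rose and 1 fell, with a median log2 difference of 2.53. CDKN1A (ENSG00000124762, chromosome 6, 36676460 to 36687339), the gene for the cyclin-dependent kinase inhibitor p21, was at 154, 136 and 135 CPM in control and 3960.5, 4348 and 4147 CPM after bleomycin. No bleomycin library came near a control, and the fitted rise was 29.2-fold (log2 difference 4.87, SE 0.11). PTCHD4, a patched-related membrane protein, was at 0.785, 0.249 and 0.71 CPM in control and 25.3, 19.1 and 24 CPM after bleomycin, and the 6 libraries separated fully (38.4-fold, log2 difference 5.26, SE 0.29). SPATA18, known as Mieap and linked to the turnover of mitochondrial proteins, rose 31.3-fold, from 2.73 ± 0.297 to 85.5 ± 6.93 CPM (SD, n = 3). The anti-proliferative gene ZNF385A rose 9.37-fold and the RNA-binding regulator ZMAT3 5.79-fold. GADD45A, a stress sensor that binds PCNA, rose 4.99-fold, and its relative GADD45B fell (log2 difference -0.76, or -0.43 without control replicate 2). PLK2 was nearly level at -0.11 (SE 0.14), did not pass with all libraries and fell without control replicate 2 (-0.29, edgeR adjusted p = 0.0031).

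Most regulators of the pathway that passed rose. MDM2, whose product marks p53 for degradation, rose 19.3-fold, from 105 ± 4.5 to 2022 ± 120.2 CPM (SD, n = 3). The p53 relative TP73 was at 5.44, 5.29 and 5.08 CPM in control and 38.1, 42.1 and 39.4 CPM after bleomycin, with every bleomycin library several fold above every control (7.56-fold, log2 difference 2.92, SE 0.19). PPM1D, the phosphatase that turns off p53 and ATM signalling, rose 4.27-fold, and AEN, a nuclease of p53-driven death, 5.15-fold. In this list 7 of 14 tested members rose and 2 fell, and CCNG2, an unconventional cyclin, fell (-0.96) while its paralog CCNG1 rose (1.33).

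In the branch of DNA repair, 10 of 12 tested members rose and 2 fell, with a median of 2.01. DDB2, which recognises ultraviolet lesions, was at 39.9, 24.3 and 38.3 CPM in control and 271, 323 and 291 CPM after bleomycin. All 3 treated libraries lay above all controls (8.63-fold). TP53I3, an oxidoreductase, rose 20.3-fold, RRM2B, the p53-dependent ribonucleotide reductase subunit, 6.4-fold, and the translesion polymerase POLH 3.79-fold. The Fanconi gene FANCC was among those that fell (-0.35). The falls dropped to 1 without control replicate 1, control replicate 3, bleomycin replicate 1 or bleomycin replicate 2.

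Every tested member of the branch of cell death rose, 18 of 18, with a median of 1.77. FAS, a death receptor, was at 9.49, 6.16 and 9.07 CPM in control and 105, 134 and 116 CPM after bleomycin, and BBC3, which encodes the BH3-only protein PUMA, at 9.91, 12.4 and 8.53 CPM in control and 86.6, 84.2 and 92.5 CPM after bleomycin. Both genes separated the groups without overlap, with rises of 14.4-fold and 8.56-fold. The receptors TNFRSF10A and TNFRSF10B, which bind the death ligand TRAIL, rose 3.64-fold and 3.21-fold, and so did the decoy receptor TNFRSF10D (1.8-fold). TNFRSF10C, the other decoy, held 4 counts in the 3 controls together and 161 after bleomycin, so it could hardly have been counted as a fall. The effector BAX rose 2.97-fold, and its relative BAK1 2.15-fold. Within the wider BCL2 family both sides moved, as 8 of 16 tested members rose and 3 fell. The protective BCL2L1, which encodes BCL-XL, rose 2.42-fold, MCL1, another protective member, did not pass (-0.26, SE 0.17), and the death-promoting BMF fell (log2 difference -2.87, SE 0.14). Levels of BMF were 21.9, 20.8 and 24.2 CPM in control and 3.05, 2.98 and 3.1 CPM after bleomycin, with no overlap between the groups.

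Targets with a metabolic role rose less uniformly, as 11 of 16 tested members rose and 1 fell. The secreted stress cytokine GDF15 was at 11.3, 10.8 and 8.58 CPM in control and 498, 681 and 515 CPM after bleomycin, a rise of 55.2-fold. SESN1 and SESN2, sestrins that restrain the growth kinase mTORC1, rose 7.66-fold and 5.37-fold. TIGAR, a fructose bisphosphatase that slows glycolysis, rose 5.76-fold, and GLS2, a glutaminase, went from 8 counts in the 3 controls together to 199 (log2 difference 4.51, SE 0.43). The brain-type carnitine transferase CPT1C was the member that fell (-0.49), and LPIN1 and ULK1 did not pass (-0.21 and 0.05). LPIN1 passed as lower without control replicate 2 (-0.31).

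**Figure D2:**
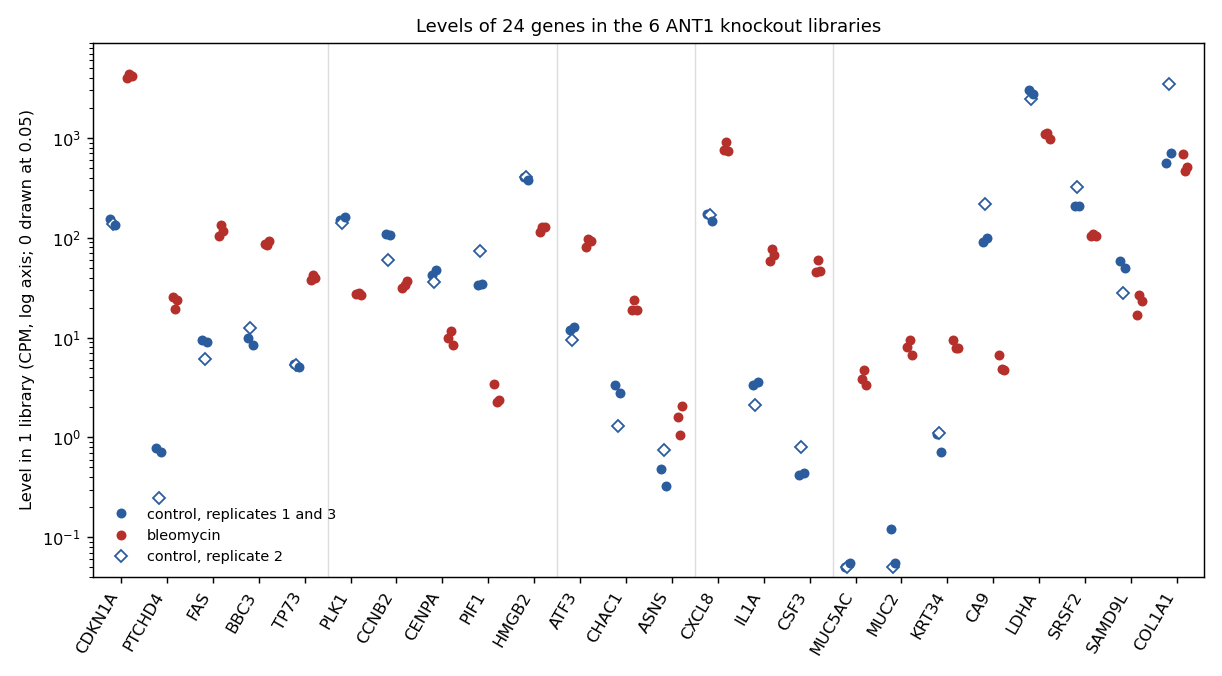
Level of 24 genes in each of the 6 knockout libraries, in CPM on a log axis, with values of 0 drawn at 0.05. Blue marks are controls, with replicate 2 as an open diamond, and red marks are bleomycin libraries. CDKN1A, FAS and TP73 sit far above their controls, PLK1, CENPA and PIF1 below, and for COL1A1 and CA9 control replicate 2 lies well above the other 2 controls.

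Genes of mitosis fell together. Of 34 genes of mitotic entry and the spindle, 31 fell and 0 rose, with a median of -1.29, and 26 fell at least 2-fold. Of 32 kinetochore and centromere genes, 23 fell and 1 rose (median -0.87), with 2 rises without control replicate 2. In bulk RNA, fewer cells in mitosis and less of these transcripts per cell cannot be told apart. PLK1, the kinase that drives mitotic entry, was at 152, 139 and 160.2 CPM in control and 27.5, 28.2 and 27 CPM after bleomycin. CCNB2, cyclin B2, was at 109, 59.4 and 107 CPM in control and 31.4, 33.4 and 36.5 CPM after bleomycin, and the groups did not overlap for either gene. The fitted falls were -2.45 (SE 0.09) and -1.44 (SE 0.18). PIF1, a DNA helicase, was placed in the list of mitotic entry and the spindle with earlier results of these data known. It was at 33.4, 74.3 and 34.1 CPM in control and 3.43, 2.29 and 2.39 CPM after bleomycin, the largest fall in the list (log2 difference -4.13, SE 0.32). Control replicate 2 was the highest there, and without it the fall was -3.66. CENPA, the histone that marks the centromere, was at 42.7, 36.1 and 48.1 CPM in control and 9.84, 11.6 and 8.37 CPM after bleomycin, with all treated libraries below all controls (log2 difference -2.09, SE 0.14).

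Promoters of these genes are known to carry a CCAAT box and, close to the start site, a cell cycle homology region (CHR), the element that the DREAM and MuvB complexes bind. The stretches of 6 fallen genes, each with both motifs, are printed to show these letters. In 5 of them the CHR begins within 50 bases of the start site and the CCAAT boxes lie upstream of it, while in CDC20 the CHR begins 65 bases before the start site with a CCAAT box on either side. Each is the stretch from 130 bases before the start site to the base before it, on the strand of the gene, from RefSeq promoters on GRCh38.p14, and start sites are RefSeq's. The 5′ end of the gene in the authors' table lay within 1 kb of that site for 9391 of 11155 tested genes (84.2%), but 21.8 kb upstream of it for CENPA and 1.23 kb upstream for PLK1. Capitals mark the CHR letters TTTGAA or TTCGAA and the CCAAT box (CCAAT, or ATTGG where it lies on the other strand). The stretches are PIF1 (chr15:64825648-64825777, minus strand), PSRC1 (chr1:109283146-109283275, minus strand), CCNB2 (chr15:59105016-59105145, plus strand), PLK1 (chr16:23678759-23678888, plus strand), CENPA (chr2:26785926-26786055, plus strand) and CDC20 (chr1:43358851-43358980, plus strand).
PIF1: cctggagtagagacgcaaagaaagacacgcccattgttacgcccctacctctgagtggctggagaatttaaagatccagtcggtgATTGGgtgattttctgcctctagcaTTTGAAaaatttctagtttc
PSRC1: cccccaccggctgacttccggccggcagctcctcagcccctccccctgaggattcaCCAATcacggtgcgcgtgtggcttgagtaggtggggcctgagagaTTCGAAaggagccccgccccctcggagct
CCNB2: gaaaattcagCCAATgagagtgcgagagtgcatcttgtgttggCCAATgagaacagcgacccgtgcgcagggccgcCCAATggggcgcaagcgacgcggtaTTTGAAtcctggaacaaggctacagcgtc
PLK1: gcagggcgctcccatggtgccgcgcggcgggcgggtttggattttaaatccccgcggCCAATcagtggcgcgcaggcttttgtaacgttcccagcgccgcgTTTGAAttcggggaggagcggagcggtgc
CENPA: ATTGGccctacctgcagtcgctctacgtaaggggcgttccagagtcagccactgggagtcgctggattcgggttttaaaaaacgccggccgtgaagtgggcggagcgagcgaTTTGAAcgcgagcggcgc
CDC20: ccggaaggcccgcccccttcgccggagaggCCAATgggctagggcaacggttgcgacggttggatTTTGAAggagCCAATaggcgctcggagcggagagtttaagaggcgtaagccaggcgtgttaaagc
These 6 were chosen after their sequences were seen, and the shares over the lists are given next.

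Of the 31 fallen mitosis genes, 28 had a promoter in the RefSeq table, and 21 of the 28 (75.0%) held the CHR letters on either strand within 250 bases before to 50 after the start. Of the fallen kinetochore genes, 18 of 23 had a promoter and 13 of the 18 (72.2%) held them. The same letters occurred in 11.2% of the 11156 promoters of tested genes and in 16.6% of all 27305 promoters in the table. The CCAAT box was found in 82.1% and 72.2% of the promoters of the fallen mitosis and kinetochore genes, against 36.0% of those of tested genes and 35.7% of all. Over the 46 promoters of both lists, 30 (65.2%) held both motifs, against 4.60% of the promoters of tested genes. The CHR letters lay near the start: in 25 of the 46 (54.3%) a match began between 50 bases before and 25 after it, against 2.63% of promoters of tested genes. In fallen replication genes 1 of 12 promoters (8.33%) held CHR letters and 7 (58.3%) a CCAAT box. In risen p53 targets 3 of 41 (7.32%) held CHR letters and 19 (46.3%) CCAAT, in risen stress response genes 0 and 7 of 11 (63.6%), and in fallen glycolysis genes 1 (5.88%) and 5 (29.4%) of 17. These shares describe letters in a window and were not tested. PLK1, CCNB2, PIF1, PSRC1, CENPA and CDC20, the printed examples, fell by 1.44 to 4.13 on the log2 scale.

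**Figure D3:**
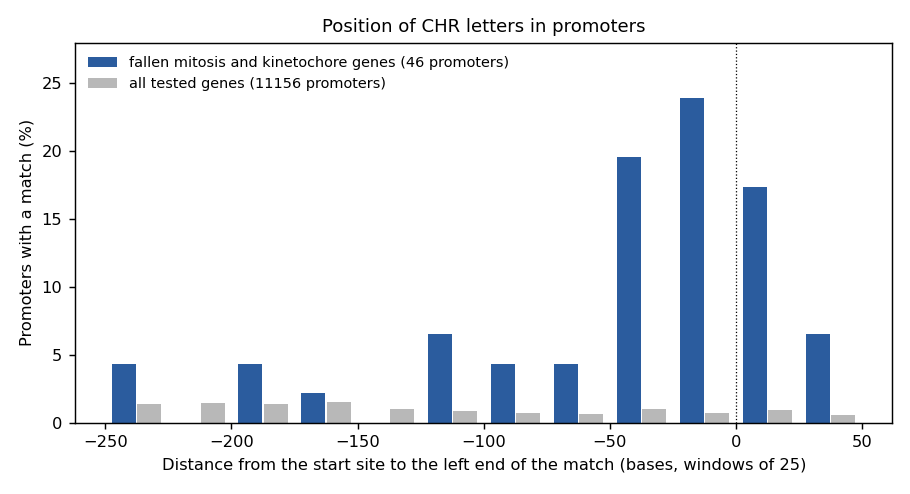
Share of promoters, in percent, in which a CHR match begins in each window of 25 bases, against the distance from the start site in bases. Blue bars are the 46 promoters of fallen mitosis and kinetochore genes and grey bars the 11156 promoters of tested genes. The blue bars peak in the 3 windows from 50 bases before to 25 after the start, at 19.6%, 23.9% and 17.4%, where the grey bars stay near 1%.

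In the list of mitotic entry and the spindle 3 members did not pass, and in the kinetochore list 8 did not pass and 1 rose. The securin gene PTTG1 and CKS1B, a partner of cyclin-dependent kinases, were at -0.20 (SE 0.17) and -0.01 (SE 0.12). CKS2 did not pass with all libraries (-0.55, SE 0.40) and fell without control replicate 2 (-0.99, edgeR adjusted p = 2.54e-06). CENPU rose (0.33) but did not pass without bleomycin replicate 2 (0.29). Genes of DNA replication moved less than those of mitosis, as 5 of 35 tested members rose and 14 fell, with a median of -0.19. Without control replicate 2, 5 rose and 18 fell. MCM6, a subunit of the replicative helicase, was at 149.8, 165 and 145 CPM in control and 61.5, 62.4 and 68 CPM after bleomycin, and the groups did not overlap (-1.26). UHRF1, which maintains DNA methylation, fell by 1.03 on the log2 scale, and TYMS, thymidylate synthase, rose (0.82). Its rises dropped to 3 without control replicate 1, control replicate 3 or bleomycin replicate 1.

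Among the regulators above these lists the changes were mixed. Of the E2F factors, pocket proteins and MuvB subunits, 3 of 21 tested members rose and 7 fell, with 10 falls without control replicate 2. The rises dropped to 1 without bleomycin replicate 2 or 3 and the falls to 4 without bleomycin replicate 1 or 2. The repressor E2F7, itself a p53 target, was at 143, 135 and 139.8 CPM in control and 469, 456 and 489 CPM after bleomycin, all treated libraries above all controls (1.76). The activators MYBL2 and E2F2 fell (-0.62 and -0.95), and FOXM1, the activator of mitosis genes, did not pass with all libraries (-0.38, SE 0.23) but fell without control replicate 2 (-0.67). Among inhibitors and cyclins of the first gap phase, 5 of 17 tested members rose and 5 fell. CCND1 and CCND2, D-type cyclins, rose 3.28-fold and 47.9-fold, the latter from 15 counts in the 3 controls together. CDKN2C, which encodes the inhibitor p18, was at 134, 227 and 132 CPM in control and 35, 36.6 and 39.6 CPM after bleomycin, a fall of -2.15 with no overlap. CDKN1B, the gene for p27, fell (-0.92), CDKN2B rose (0.50), and CDKN2A, the senescence-linked locus of p16, fell (-1.17, and -0.54 without control replicate 2).

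Among chromatin and nuclear lamina genes linked to senescence, 3 of 18 tested members rose and 11 fell, with a median of -0.43. Without control replicate 2, 4 rose and 13 fell. LMNB1, lamin B1 of the nuclear lamina, was at 373, 589 and 392 CPM in control and 147, 137 and 148 CPM after bleomycin, and HMGB2, a DNA-bending protein, at 405, 405 and 381 CPM in control and 115, 129 and 129 CPM after bleomycin. The control and treated libraries did not overlap for either, and the falls were -1.65 and -1.67. HMGA2, an architectural factor of senescence-associated chromatin foci, rose 6.04-fold (log2 difference 2.60, SE 0.22).

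Genes that sense DNA breaks mostly fell or did not pass. Of the sensors and checkpoint kinases, 2 of 19 tested members rose and 9 fell, and H2AFX, the histone phosphorylated at breaks, had the largest fall (-1.46). It was at 279, 462 and 299.9 CPM in control and 136, 122 and 121 CPM after bleomycin, so that control replicate 2 was the highest library and no treated library reached a control. WEE1, a kinase that restrains entry into mitosis, fell (-1.13), and ATM did not pass (0.09, SE 0.09). Of the end-joining genes, 1 of 13 tested members rose and 4 fell, with PARP1 (-0.81), XRCC5 and PRKDC, the gene for the catalytic subunit of DNA-PK (-0.43 and -0.38), among the falls. The falls in end joining dropped to 2 without bleomycin replicate 2, where PRKDC did not pass (-0.27). Among genes that handle bleomycin or process damaged ends, 3 of 12 tested members rose and 1 fell, with 2 falls without control replicate 2. The metallothioneins MT2A and MT1E rose (0.92 and 0.92), APTX, aprataxin, rose (1.03), OGG1 fell (-0.46), and BLMH, the hydrolase that inactivates bleomycin, was at 0.00 (SE 0.11).

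Most genes of the integrated stress response, in which the factor ATF4 raises genes of amino acid supply, were higher after bleomycin. Of these genes 16 of 24 tested members rose and 3 fell, with a median of 0.81. Without control replicate 2, 19 rose and 3 fell, with a median of 0.96. DDIT3, the stress factor CHOP, was at 6.04, 3.48 and 4.86 CPM in control and 37.7, 57.2 and 41.4 CPM after bleomycin, and CHAC1, an enzyme that degrades glutathione, at 3.38, 1.31 and 2.79 CPM in control and 18.9, 24 and 18.8 CPM after bleomycin. Neither gene's groups overlapped, and the rises were 9.46-fold and 8.19-fold. ASNS, asparagine synthetase, was at 0.483, 0.747 and 0.328 CPM in control and 1.59, 1.06 and 2.07 CPM after bleomycin, low levels that did not overlap (1.60, SE 0.47). It did not pass without control replicate 3 (1.34) or bleomycin replicate 3 (1.35). NUPR1, a stress-induced chromatin protein, rose 12-fold, and ATF4 itself 1.42-fold. DDIT4, an inhibitor of mTORC1, fell (-0.96), as did the lipoprotein receptor VLDLR (-0.78). Of 11 risen members with a promoter in the table, ASNS and CHAC1 held the letters TGATGNAAN of an ATF4 element on either strand (18.2%), against 1.74% of promoters of tested genes and 3.67% of all. The matching stretches are printed with those letters in capitals, for ASNS the 130 bases before the start (chr7:97872409-97872538, minus strand) and for CHAC1 a stretch of the same length farther upstream (chr15:40953241-40953370, plus strand), where the match is on the other strand.
ASNS: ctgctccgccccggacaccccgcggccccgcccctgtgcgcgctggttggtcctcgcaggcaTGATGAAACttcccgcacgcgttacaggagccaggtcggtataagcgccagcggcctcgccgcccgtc
CHAC1: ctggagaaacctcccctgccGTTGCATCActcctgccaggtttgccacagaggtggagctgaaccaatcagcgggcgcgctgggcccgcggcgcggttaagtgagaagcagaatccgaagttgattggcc
For p53 targets the p53 element (a pair of half-sites with no spacer and at most 1 mismatch outside the C and G) was found in 1 of 41 promoters (2.44%), that of PTCHD4, against 0.0448% of those of tested genes and 0.0476% of all. The capitals mark it in the 130 bases before the start site, where it ends at the last base (chr6:48111198-48111327, minus strand). That RefSeq start site lies 42.5 kb upstream of the 5′ end of PTCHD4 in the authors' table, so the stretch is not next to the gene as it was counted.
PTCHD4: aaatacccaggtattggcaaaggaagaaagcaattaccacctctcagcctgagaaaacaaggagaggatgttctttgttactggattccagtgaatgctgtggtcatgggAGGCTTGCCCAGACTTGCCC

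Other stress pathways moved less. Of the genes of the endoplasmic reticulum, 3 of 19 tested members rose and 2 fell, and 7 rose and 3 fell without control replicate 2. The falls dropped to 0 without bleomycin replicate 1 or 3. ERN1, the sensor IRE1, rose 4.82-fold. Its partner sensor EIF2AK3, the kinase PERK, did not pass (-0.35, SE 0.19) except without control replicate 1 (-0.52). Among heat shock genes and cytosolic chaperones the balance was downward, as 3 of 19 tested members rose and 9 fell. HSPD1, the mitochondrial chaperonin, fell (-0.62), and HSPB8, a small heat shock protein, rose 8.63-fold. Antioxidant genes split, as 6 of 24 tested members rose and 4 fell, or 9 and 6 without control replicate 2. HMOX1, heme oxygenase, was at 32.3, 17.9 and 28.7 CPM in control and 200.1, 268 and 212 CPM after bleomycin, clear of overlap (8.61-fold), and AKR1B10, an aldo-keto reductase, went from 15 to 859 counts over 3 libraries. TXNRD1, thioredoxin reductase, fell (-1.17), and NQO1 did not pass (-0.16, SE 0.12).

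Glycolysis was lower. Of 25 genes of glycolysis and lactate handling 18 fell and 0 rose, with a median of -0.52. LDHA, lactate dehydrogenase A, was at 3036, 2449.6 and 2742 CPM in control and 1100.2, 1123 and 977 CPM after bleomycin, and HK2, the inducible hexokinase, at 136, 187 and 138 CPM in control and 65.7, 59.1 and 61.9 CPM after bleomycin. Each gene separated the groups (-1.36 and -1.30). The falls of ALDOC, GPI and PGK1 were -1.61, -1.24 and -1.07, and among very abundant transcripts ENO1, enolase, and PKM, pyruvate kinase, fell (-0.94 and -0.42). The glucose transporter SLC2A1 was at -0.01 (SE 0.11). GAPDH did not pass with all libraries (-0.35, SE 0.24) and fell without control replicate 2 (-0.64).

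The response to low oxygen overlaps with that list in function and moved in both directions, as 6 of 22 tested members rose and 13 fell (median -0.75). CA9, a carbonic anhydrase driven by HIF, was at 91.3, 215 and 98.5 CPM in control and 6.73, 4.89 and 4.73 CPM after bleomycin. No treated library came near a control, control replicate 2 was the highest, and the fall was -4.64 with and -4.14 without it. BNIP3, a mitophagy receptor, and the prolyl hydroxylase EGLN1 fell (-1.27 and -1.14). HIF1A and EPAS1, the HIF subunits themselves, rose (0.69 and 1.16), and CA12 rose 5.34-fold.

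In lipid metabolism, sterol genes leaned downward, as 3 of 26 tested members rose and 15 fell, or 5 and 13 without control replicate 2. INSIG2, which holds the sterol-sensing complex in the endoplasmic reticulum, was at 55, 74.9 and 51.3 CPM in control and 26.2, 28.9 and 29.2 CPM after bleomycin and fell (-1.10). HSD17B7, a reductase of cholesterol synthesis, was at 13.1, 8.21 and 14.2 CPM in control and 36.8, 47.7 and 38.3 CPM after bleomycin and rose (1.79). Neither gene's groups overlapped. The demethylase CYP51A1 passed with all libraries (-1.43) but not without control replicate 2 (-0.48, edgeR adjusted p = 0.0869), bleomycin replicate 2 (-1.34) or bleomycin replicate 3 (-1.36). Of the fatty acid genes, 5 of 21 tested members rose and 6 fell, and those falls dropped to 3 without bleomycin replicate 2. FADS1, a desaturase, and the lipid droplet coat PLIN2 rose (1.31 and 1.28), and SCD, stearoyl-CoA desaturase, fell (-1.12). Among ABC transporters, 9 of 24 tested members rose and 4 fell, and the falls dropped to 1 without bleomycin replicate 2 and to 2 without bleomycin replicate 3. The cholesterol exporters ABCA1 and ABCG1 rose 9.79-fold and 5.1-fold, ABCA1 with levels of 19.8, 20.7 and 17.1 CPM in control and 189, 174 and 199.6 CPM after bleomycin that did not overlap.

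Lysosomal genes leaned upward, as 12 of 28 tested members rose and 2 fell (median 0.23), and the falls dropped to 0 without bleomycin replicate 2. LAMP1, a major membrane protein, rose 1.98-fold and LAMP3 4.33-fold, while GLB1, the source of senescence-associated beta-galactosidase, did not pass (0.05, SE 0.14). In autophagy, 4 of 27 tested members rose and 5 fell. SQSTM1, the cargo receptor p62, and MAP1LC3B, the marker LC3B, rose (1.07 and 1.17), and FKBP8, a mitophagy receptor, fell (-0.90).

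Transcripts of the mitochondrial genome depended on control replicate 2. The 13 proteins encoded in the mitochondrial genome had a median log2 difference of 0.57 with that library and 0.08 without it, and MT-ATP8 alone passed with all libraries (1.43, or 0.97 without it, and 1.26 without bleomycin replicate 2, which did not pass). Without control replicate 2 there were 2 rises. MT-CO1, a subunit of cytochrome oxidase, was at 10123, 805 and 9218 CPM in control and 10992, 12445 and 11495 CPM after bleomycin. Control replicate 2 was far below all others, the treated libraries lay just above controls 1 and 3, and the difference did not pass either way (0.79 with and 0.26 without it). Of the 49 respiratory chain genes in the nucleus, 3 rose and 3 fell, with a median of 0.07, and 7 rose and 3 fell without control replicate 2. Counts of this list moved with several single libraries, from 1 to 7 rises and 1 to 5 falls. ATP5F1A, a catalytic core subunit of ATP synthase, fell (-0.54), and CYCS, cytochrome c, rose (0.44).

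Among translocases and genes linked to the permeability pore, 2 of 13 tested members rose and 3 fell. PPIF, cyclophilin D, the regulator of the pore, was at 276, 582 and 283 CPM in control and 719, 686 and 683 CPM after bleomycin. Its groups did not overlap (0.87, or 1.31 without control replicate 2). TSPO fell (-0.68), and the channel VDAC1 did not pass with all libraries (-0.25, SE 0.14) but fell without control replicate 2 (-0.39). Of 32 other carriers of the SLC25 family, 5 rose and 9 fell, or 10 and 9 without that library. SLC25A45 had the largest rise (log2 difference 3.13, SE 0.21), and the glutamate carrier SLC25A22 fell from 48.9 ± 20.7 to 24.4 ± 1.79 CPM. Genes of mitochondrial dynamics and biogenesis leaned downward, as 2 of 24 tested members rose and 10 fell, although the falls dropped to 5 without bleomycin replicate 2 and the rises were 4 without control replicate 2. MFN1, a fusion protein, was at 63.7, 78.2 and 65.4 CPM in control and 37.6, 39 and 41.5 CPM after bleomycin and fell (-0.81), while its relative MFN2 rose (0.49). Among genes that handle ATP outside the cell, 5 of 19 tested members rose and 3 fell. NT5E, the ectonucleotidase CD73, and the adenosine receptor ADORA2B rose (1.00 and 1.05), and ADORA1 fell (-1.14).

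Secreted factors rose over a wide range. Of the interleukins and colony-stimulating factors, 13 of 17 tested members rose and 0 fell, with a median of 2.02. IL1A, an alarm cytokine at the head of the senescent secretome, was at 3.38, 2.12 and 3.55 CPM in control and 58.5, 77.4 and 66.8 CPM after bleomycin. CSF3, the granulocyte factor, was at 0.423, 0.809 and 0.437 CPM in control and 45.6, 59.4 and 46.5 CPM after bleomycin, and neither gene's groups overlapped. The fitted rises were 22.2-fold and 90.6-fold, the latter from 28 counts in the 3 controls together. Members with so few control counts could hardly have been counted as falls. IL1B, IL24 and CSF2 rose 16.3-fold, 23.1-fold and 20.7-fold. IL6, at 7.92, 8.9 and 6.5 CPM in control and 36.6, 61 and 39 CPM after bleomycin, rose 5.87-fold (log2 difference 2.55, SE 0.19). IL18 and IL15 did not pass (0.27 and -0.38).

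Chemokines moved in both directions, as 7 of 14 tested members rose and 3 fell, with 5 falls without control replicate 2. CXCL8, which attracts neutrophils, was at 172, 169 and 149 CPM in control and 761, 906 and 744 CPM after bleomycin, a clear separation (4.92-fold). CXCL2, CXCL3 and CXCL1 rose 7.17-fold, 5.73-fold and 3.22-fold, although reads of these near-identical genes may be shared. CCL2, which attracts monocytes, was at 37.5, 23 and 37.1 CPM in control and 11.4, 17.2 and 14.1 CPM after bleomycin and fell (-1.19), as did CXCL6 (-1.36).

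Several ligands of the EGF receptor family rose. In that list 7 of 14 tested members rose and 4 fell. AREG, amphiregulin, was at 7.67, 5.35 and 6.12 CPM in control and 166, 276 and 195 CPM after bleomycin, with no overlap (33.3-fold). The ligands EREG, TGFA and NRG1 rose 7.87-fold, 5.69-fold and 10.4-fold. EGFR rose slightly (0.48), the related receptors ERBB2 and ERBB3 fell (-0.84 and -2.76), and ERRFI1, a feedback inhibitor of the receptor, fell (-1.30). Downstream of the kinase ERK, 15 of 20 tested feedback and early response genes rose and 0 fell (median 0.93). DUSP6, a phosphatase of ERK, was at 2.96, 2.12 and 2.84 CPM in control and 10.8, 10.8 and 13.9 CPM after bleomycin, clear of overlap (4.47-fold). ETV4, an ETS factor, rose 5.26-fold and the survival gene IER3 4.25-fold.

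Other growth factors leaned upward, as 10 of 18 tested members rose and 4 fell. KITLG, the stem cell factor, and ANGPTL4 rose 5.25-fold and 4.38-fold, and PDGFB fell (log2 difference -2.28, SE 0.17). IGFBP7, a secreted binding protein, was at 216, 801 and 210.4 CPM in control and 713, 619 and 673 CPM after bleomycin. Control replicate 2 was the highest library of all, and the other 2 controls were the lowest. The difference did not pass with all libraries (0.71, SE 0.40) and rose without control replicate 2 (1.65, edgeR adjusted p = 6.14e-12), and IGFBP4 behaved alike (0.58 with and 1.06 without it). In the TGF-beta family, 10 of 26 tested members rose and 5 fell, with 8 falls without control replicate 2. INHBA, which forms activin A, was at 8.4, 7.15 and 5.9 CPM in control and 28, 26.8 and 31 CPM after bleomycin, with no overlap (4-fold), BMP2 rose 8.82-fold, and BMP4 fell (-2.71). SMAD6, an inhibitor of BMP signals, fell (-2.06, or -1.57 without control replicate 2). TGFB1 did not pass with all libraries (0.21, SE 0.16) but rose without control replicate 2 (0.41).

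Transcription factors that answer to stress and cell contact gave smaller counts. Of the AP-1 factors, 6 of 13 tested members rose and 1 fell, with 8 rises without control replicate 2 and 3 falls without control replicate 1. ATF3 was at 12, 9.39 and 12.9 CPM in control and 81.6, 97.7 and 92 CPM after bleomycin, without overlap (7.91-fold). JUN did not pass (-0.24, SE 0.11) except without control replicate 1 (-0.32). Of the NF-kB subunits and feedback genes, 5 of 17 tested members rose and 3 fell, and 10 rose and 3 fell without control replicate 2. The falls dropped to 1 without bleomycin replicate 3. TNFAIP3, the feedback inhibitor A20, rose 5.39-fold and RELB 1.87-fold, whereas TNFAIP2 fell (-2.07) and RELA did not pass (0.20, SE 0.15). In the Notch pathway 5 of 15 tested members rose and 2 fell, and 9 rose and 1 fell without that library. The falls dropped to 0 without bleomycin replicate 2. NOTCH3 was at 3.02, 9.77 and 3.66 CPM in control and 33.6, 33.5 and 31.5 CPM after bleomycin, and the groups did not overlap (2.59, or 3.29 without control replicate 2). The ligand JAG1 rose 4.32-fold and NOTCH1 3.1-fold. In the Wnt pathway 6 of 26 tested members rose and 9 fell, or 8 and 7 without control replicate 2. DKK1, a secreted Wnt inhibitor, rose 4.1-fold, and WNT10A and the receptor FZD7 fell (-2.42 and -1.24). Targets and factors of YAP and TAZ gave 20 tested genes, of which 6 rose and 5 fell. AMOTL1, a scaffold that binds YAP, rose 2.88-fold, and AXL did not pass (-0.05). In the MYC network 3 of 12 tested members rose and 4 fell. MYC fell (-0.71), and MXD1, an antagonist, rose (1.11).

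Matrix genes did not move as a block. Of 25 collagens 7 rose and 7 fell with all libraries, and 11 rose and 6 fell without control replicate 2. COL1A1, the main fibrillar collagen, was at 556, 3474 and 707 CPM in control and 687, 463 and 513 CPM after bleomycin. Control replicate 2 was several fold above every other library, and the remaining 5 overlapped. The difference passed with it (-1.51, SE 0.57) and not without it (-0.19, edgeR adjusted p = 0.66), nor without bleomycin replicate 1 (-1.69), 2 (-1.40) or 3 (-1.44). Its partner chain COL1A2 rose only without that library (0.83 with and 1.60 without it). COL17A1, a hemidesmosome collagen, was at 2.42, 1.8 and 2.35 CPM in control and 33.4, 46.4 and 36 CPM after bleomycin, with every treated library well above the controls (17.5-fold). COL7A1 of the anchoring fibrils rose (1.90, or 2.71 without control replicate 2), and COL8A1 and COL12A1 fell (-1.91 and -1.85). Of the enzymes that modify collagen, 3 of 16 tested members rose and 6 fell, with PLOD2, a lysyl hydroxylase, down (-1.07) and LOX at -0.03 (SE 0.11).

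Proteases and the plasminogen system leaned upward, as 12 of 21 tested members rose and 4 fell (median 0.53). MMP1, interstitial collagenase, was at 7.01, 4.48 and 4.26 CPM in control and 60.4, 77.6 and 63.6 CPM after bleomycin, and SERPINB2, an inhibitor of plasminogen activators, at 8.1, 4.04 and 5.74 CPM in control and 76.2, 97.8 and 77.6 CPM after bleomycin. All treated libraries lay above all controls for both, with rises of 12.8-fold and 14.1-fold. MMP3, stromelysin, rose 8.73-fold. MMP2, a gelatinase, fell (log2 difference -1.50, SE 0.11). Of the mesenchymal and contractile genes, 3 of 20 tested members rose and 6 fell, a share of 45.0% called, near that over all genes. ACTA2, smooth muscle actin, was at 3.08, 2.61 and 1.91 CPM in control and 58.5, 69.3 and 65.9 CPM after bleomycin, a 25.5-fold rise with no overlap. SNAI2, the factor Slug, rose 7.86-fold, TWIST1 fell (-0.97), and FN1, fibronectin, did not pass (0.23, SE 0.19). Of the integrins and laminins, 6 of 20 tested members rose and 8 fell, ITGA2 rising 6.44-fold and ITGB8 falling (-2.29).

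Several genes of stratified and mucous epithelium rose many fold from very low levels. Of 12 tested keratins 9 rose and 3 fell. KRT34, a hair keratin, was at 1.09, 1.12 and 0.71 CPM in control and 9.46, 7.92 and 7.83 CPM after bleomycin, and KRT81 at 23.8, 20.8 and 19.1 CPM in control and 144, 162 and 149 CPM after bleomycin. Both separated the groups (8.63-fold and 7.15-fold), although KRT81 and KRT86 are near-identical and may share reads. KRT8 and KRT18, the paired keratins of simple epithelium, fell (-0.42 and -0.93), and KRT19 rose (1.54). In desmosomes and adherens junctions 6 of 14 tested members rose and 4 fell. DSG3, a desmoglein of squamous epithelium, went from 16 to 990 counts over the 3 libraries, and DSC3 from 5 to 345, while PKP2 fell (-1.62). Of the cornified envelope genes, 6 of 14 tested members rose and 4 fell, with CSTA, cystatin A, going from 9 to 1131 counts and PPL, periplakin, falling (-1.85). Tight junction genes split, as 3 of 13 tested members rose and 6 fell, CLDN1 rising (1.84) and OCLN, occludin, falling (-0.76).

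The gel-forming mucins were close to absent in control. MUC5AC, the secreted mucin of airway goblet cells, held 1 count in the 3 controls together and 210 after bleomycin, a ratio of 202 (95% exact interval 35.8 to 8013). MUC2, its intestinal counterpart on the same chromosome, held 3 and 427, a ratio of 137 (95% exact interval 46.5 to 666). These intervals cover counting error only, and the fitted values of such genes depend on the prior count. In CPM, MUC5AC was at 0, 0 and 0.0547 CPM in control and 3.81, 4.73 and 3.32 CPM after bleomycin, and the single control count lay in replicate 3. MUC16 had 0 counts in control and 21 after bleomycin, at least 6.73-fold higher if the controls are set at 3 counts in all. MUC1, a membrane mucin, fell (log2 difference -2.21, SE 0.40), MUC4 did not pass (-0.49), and MUC5B and the goblet cell regulator SPDEF did not pass the filter on low counts. FOXJ1, the regulator of ciliated cells, went from 0 counts to 41, at least 13.1-fold higher. The list of cilia genes gave 4 rises and 1 fall in 10 tested. FOXJ1, with 0 counts in control, is among the rises and could not have been counted as a fall. RFX3 rose (0.90), and RFX2 fell (-0.49).

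Airway defence genes went the other way, as 2 of 10 tested members rose and 6 fell (median -1.24). ELF3, an epithelial transcription factor, was at 32.6, 26.4 and 30.2 CPM in control and 0.825, 0.904 and 1.03 CPM after bleomycin. Its treated libraries were all far below its controls, with means of 29.7 ± 3.09 CPM in control and 0.921 ± 0.105 CPM after bleomycin (SD, n = 3). SLPI, a protease inhibitor of airway fluid, fell by 4.20 on the log2 scale, or by 5.68 without bleomycin replicate 2. The acute phase genes SAA1 and SAA2 fell (-1.53, and -2.55 or -3.19 without bleomycin replicate 2) but may share reads, and complement C3 rose (0.95). Markers of other cell types showed no common direction. Of 8 leukocyte markers 3 were tested. ITGAM held 2 counts in control and 255 after bleomycin, CD14 fell (-3.19), and CSF1R did not pass (0.21), while PTPRC, the general leukocyte marker, did not pass the filter. Of 6 endothelial markers 3 were tested, with KDR higher (1.66, or 1.33 and not passing without bleomycin replicate 2), CDH5 lower (-1.75) and VWF not passing (0.70). Of 8 fibroblast markers 4 were tested. PDGFRB fell (-1.95), COL1A1 and COL1A2 are given above, and THY1 did not pass with all libraries (-0.33) but fell without control replicate 2 (-0.65). Of 10 epithelial markers 9 were tested, 5 rose and 3 fell, and the rises dropped to 3 without bleomycin replicate 2. The part of these marker levels in the other results was not tested.

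Genes induced by interferon fell or did not pass the test. Of 30 tested, 12 fell and 0 rose (median -0.57), and the number of falls was unstable. It was 11 without control replicate 2, 7 without control replicate 1, 6 without bleomycin replicate 1, 19 without bleomycin replicate 2 and 7 without bleomycin replicate 3. SAMD9L, an antiviral factor, was at 59.1, 28 and 50.3 CPM in control and 16.8, 26.7 and 23.2 CPM after bleomycin, and the groups separated narrowly (-1.04, SE 0.24). OAS3, which senses double-stranded RNA, fell (-0.62, SE 0.16), and ISG15 did not pass (0.25, SE 0.24). Sensors of nucleic acids gave 13 tested genes, 5 rising and 3 falling. NLRP1, an inflammasome sensor of epithelium, rose 2.52-fold and IFI16, a DNA sensor, 1.87-fold, whereas CGAS did not pass with all libraries (0.14) and rose without control replicate 2 (0.29).

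In antigen presentation by class I molecules 2 of 18 tested members rose and 4 fell. NLRC5, the activator of class I genes, fell (-1.07), the peptide transporter TAP1 rose (0.58), and HLA-B and B2M did not pass (-0.16 and -0.12). Ligands seen by natural killer cells and checkpoint molecules gave 8 rises and 3 falls of 18. ULBP1, a ligand of the receptor NKG2D, was at 2.05, 0.498 and 1.64 CPM in control and 32.4, 39.9 and 40.2 CPM after bleomycin, with no overlap (26.5-fold). MICA and MICB, of the same receptor, rose (0.86 and 0.92), and CD47, the signal that restrains phagocytes, fell (-0.49).

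Splicing factors were lower as a group. Of 25 tested 19 fell and 0 rose, with a median of -0.47, and 23 fell without control replicate 2. SRSF2 was at 209, 326 and 206 CPM in control and 105, 109 and 105 CPM after bleomycin, with control replicate 2 the highest and no overlap (-1.22, or -0.97 without it). SRSF1, SRSF3 and HNRNPA2B1 fell (-1.11, -1.12 and -1.06), and SRSF6 did not pass (-0.03, SE 0.07). Of 698 tested lincRNAs 202 rose and 60 fell (median 0.31), and of 964 antisense genes 211 rose and 64 fell (median 0.20), against 3094 and 3193 of 13467 protein-coding genes (median -0.02). The filter on low counts keeps genes that are expressed in 1 group only. More genes were detected in the bleomycin libraries (26350 to 26453) than in the controls (22024 to 23637), and 119 genes rose from 0 counts in all controls while 1 fell to 0. The counts above may include genes that passed the filter only through the bleomycin libraries. Since strand use in counting is not stated, antisense counts may hold reads of their partners. PINCR, a p53-induced noncoding RNA, went from 13 to 835 counts, and MIAT was at 5.08, 4.85 and 4.32 CPM in control and 0.952, 0.585 and 0.87 CPM after bleomycin, a fall with no overlap (-2.56).

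Beyond these lists, protein-coding genes were named by size of change among those whose log2 CPM averaged 1 or more over the libraries. LIPG, CYP4F2, KLHL30, PADI4 and RNASE7 met that average only through the bleomycin libraries, as did some list members named above, such as PTCHD4. LIPG, endothelial lipase, rose from 1 count to 205 over 3 libraries, CYP4F2 from 3 to 555, and KLHL30 from 4 to 603. PADI4, which converts arginine to citrulline, was at 0.604, 0.249 and 0.0547 CPM in control and 20.6, 32.2 and 27 CPM after bleomycin, a fitted difference of 6.46, or 7.45 without control replicate 1. RNASE7, an antimicrobial ribonuclease of skin, went from 4 to 435 counts. PLEKHS1 was at 9.67, 5.79 and 9.02 CPM in control and 0.254, 0.159 and 0.109 CPM after bleomycin, the largest fall (log2 difference -5.53, SE 0.50). PTGIS, prostacyclin synthase, fell by 4.26 on the log2 scale, or by 5.18 without bleomycin replicate 3. The chemoattractant precursor RARRES2 fell too (log2 difference -3.53, or -3.06 without control replicate 2). Among the most abundant transcripts, the actins ACTB and ACTG1 fell (-0.69 and -0.89) and the elongation factor EEF2 rose (0.47). EEF2 did not pass without bleomycin replicate 1 (0.46) or 3 (0.44).

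Some genes owed their value to control replicate 2. CTXN1 was at 9.61, 74.8 and 11.1 CPM in control and 7.11, 6.11 and 5.71 CPM after bleomycin, and PCSK1N at 22, 159 and 24.7 CPM in control and 33.8, 26.3 and 28.8 CPM after bleomycin. In each the second control was far above the other 2, and the differences were -2.33 and -1.21 with it, -0.73 and 0.34 without it. PCSK1N did not pass with all libraries, passed as lower without control replicate 1 (-1.63) or 3 (-1.61) and passed as higher without control replicate 2. MTND2P28, a nuclear copy of a mitochondrial gene, was at 187, 2.61 and 153 CPM in control and 184, 158 and 129 CPM after bleomycin, where the second control was far below the rest (0.45 with and -0.12 without it).

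**Figure D4:**
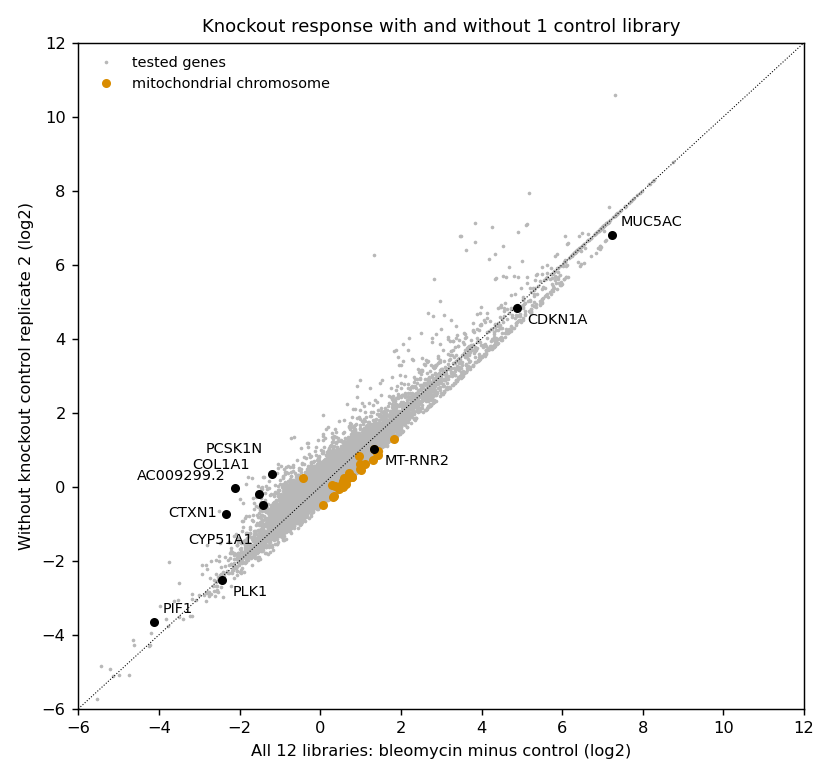
Log2 difference between bleomycin and control in knockout cells for each tested gene, with all 12 libraries (x axis) and without knockout control replicate 2 (y axis). Grey points are genes, gold points genes of the mitochondrial chromosome, and black points named genes. Most points lie along the dotted line of equal values, mitochondrial genes lie below it, and COL1A1, CTXN1 and PCSK1N lie above it.

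Whether the knockout cells responded otherwise than wild type cells was tested as an interaction, the knockout response minus the wild type response. None of 16702 genes passed edgeR's test with all libraries (0 called, 0.0%), with 770 at an unadjusted p under 0.05 (4.61%) and a smallest adjusted p of 0.351, and DESeq2 called 4. Both genotypes called 5705 genes in the same direction, 79.0% of the 7219 knockout calls and 78.6% of the 7262 wild type calls (43.5% of genes), and 0 in opposite directions. The comparisons share no libraries, but they share the fit. Of the 2341 genes called and changed at least 2-fold in both, 1473 had the smaller change in knockout cells, with a median difference of -0.11 on the log2 scale, which was not tested.

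Without knockout control replicate 2, 9 of 17204 genes passed the interaction (0.0523%), all with the less positive response in knockout cells. For CDKN1A the response was 4.87 in knockout and 5.68 in wild type cells. Its interaction was -0.81 (SE 0.13, edgeR adjusted p = 0.351) with all libraries and -0.84 (adjusted p = 0.00774) without control replicate 2. Wild type levels were 85.4, 92.5 and 95.8 CPM in control and 4637, 4609 and 4761 CPM after bleomycin, so that the knockout started higher in every control library and ended lower in every treated one. INPP5D, the phosphatase SHIP1, was at 4.95, 1.49 and 3.77 CPM in control and 65.3, 66.5 and 71.7 CPM after bleomycin in knockout cells and at 0.865, 1.36 and 1.41 CPM in control and 63.7, 75.1 and 71.5 CPM after bleomycin in wild type cells. There the treated libraries of the genotypes overlapped and every knockout control lay above every wild type control. AKAP9, CAVIN2, CYFIP2, GALNT5, RRM2B, THBD and TLR4 were the others, with interactions between -0.87 and -0.57 without control replicate 2.

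**Figure D5:**
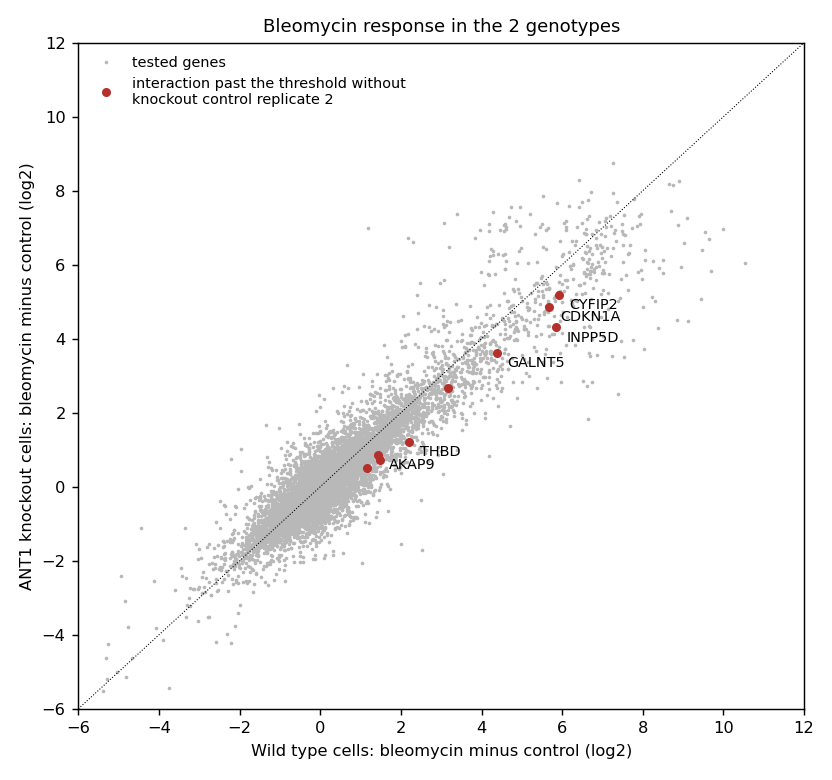
Log2 difference between bleomycin and control for each tested gene in wild type cells (x axis) and in ANT1 knockout cells (y axis), from the fit of all 12 libraries. Red points are the 9 genes whose interaction passed without knockout control replicate 2, all below the dotted line of equal response.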

How the data were processed

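RNA of the 12 libraries was sequenced by the authors, and the deposited table holds raw counts per gene for 58735 genes. A second deposited table holds FPKM values. HISAT2 2.0.5 and featureCounts 1.5.0-p3 are named in the submitters' processing notes. The genome build, and whether counting used strand, are not given in the sources used here, and the labels' protocols describe both directional and non-directional library synthesis. Gene lengths in the deposited tables were not used, and 0 value columns were left without a sample.

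Groups came from the sample titles. Counts of all 12 libraries were fitted together in R 4.3.3 with edgeR 4.0.16 (its filter on low counts, TMM scaling, robust quasi-likelihood test), so that the 4 groups share 1 estimate of the spread. P-values were adjusted with the Benjamini-Hochberg method over all genes tested, with a threshold of 0.05. In counts simulated for 16295 genes of the knockout comparison, 100.0% and 96.0% of genes changed 4-fold down and up were recovered. Of those changed 2-fold, 82.0% were recovered in either direction. The changed genes, 50 of each size and direction, had mean log2 CPM above 1. All libraries were drawn from 1 mean profile, and none was made to stand apart as knockout control replicate 2 does. The shares may therefore not hold for the real libraries. DESeq2 1.42.0 and limma 3.58.1 on log2(FPKM + 1) and log2(FPKM + 0.1) were alternatives, with other scalings, other filters, a replicate block, the knockout libraries alone and each library left out.

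The libraries described, the 65 gene lists (1306 entries, 1181 of them tested) and the rules for naming genes were chosen with earlier results of these data known. Genes were named by size of change: the 12 largest rises and falls of coding genes, up to 4 called members of each list and 4 noncoding genes each way. All of these had to show no overlap of groups and a mean log2 CPM of 1 or above. Named too were up to 2 members of each list at high level that did not pass or went the other way. The rest were 3 genes each way that control replicate 2 moved most and the 6 most abundant called genes. Not all of these are printed, the levels of some genes are not reported here, and other list members were added after their values were seen for their known role. Promoter sequences were read from RefSeq promoters on GRCh38.p14 and searched on both strands.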

Additional observations from a re-analysis of the deposited data

Results flagged for a closer look

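In 9 genes the knockout and wild type responses differed by the interaction test of edgeR (Benjamini-Hochberg adjusted) when knockout control replicate 2 was left out. Values are knockout minus wild type on the log2 scale, and 0 genes passed with all 12 libraries. The cyclin-dependent kinase inhibitor CDKN1A was at -0.84 (adjusted p = 0.00774), and RRM2B, also a p53 target, at -0.57 (adjusted p = 0.0497). INPP5D, a phosphoinositide phosphatase, was at -1.88 (adjusted p = 0.000664). The scaffold AKAP9 was at -0.76 (adjusted p = 0.00496), CYFIP2, an actin regulator, at -0.87 (adjusted p = 0.0276), and thrombomodulin THBD at -0.76 (adjusted p = 0.0276). GALNT5 was at -0.87 (adjusted p = 0.0438), the receptor TLR4 at -0.86 (adjusted p = 0.0497), and the caveolar protein CAVIN2 at -0.84 (adjusted p = 0.0276). All 9 had the smaller fitted rise in knockout cells.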

How the results depend on the processing

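The count of genes that passed in knockout cells ranged from 5866 to 8319 when each library was left out in turn, with 3189 to 4405 higher and 2677 to 3914 lower, and the count changed at least 2-fold from 2688 to 3170. Requiring a 2-fold change left 2863. The knockout libraries alone gave 5009 genes of 15703, with 2238 lower. Without control replicate 2 they gave 8553 of 16212, with 4170 lower, in an alternative chosen after seeing the data. With limma on log2(FPKM + 1), 1056 genes changed at least 2-fold, where the added 1 shrinks changes of weakly expressed genes by construction. The interaction gave 0 to 9 genes when each library was left out (9 without knockout control replicate 2), 13 without the filter on low counts, 4 with DESeq2 and 5 with the replicate block without control replicate 2, an alternative chosen after seeing the data. The cause of these differences was not tested. The mitochondrial share differed by 0.553 to 2.59 points and SLC25A4 by -0.39 to -0.11. Replicate numbers were not shown to pair the libraries, since same-numbered knockout libraries correlated at -0.118, -0.0936 and 0.0178. The replicate block gave 6030 genes. PCSK1N, which did not pass with all libraries (-1.21), was at 0.34 without control replicate 2, 0.32 without it in the knockout libraries alone, 0.41 without it with the replicate block, and -1.63 to -1.61 without control replicate 1 or 3. With 3 libraries a group, changes of 2-fold were recovered less often in simulated counts than changes of 4-fold.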
